A study of Mus musculus with 4 samples.

Results

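Genes that encode subunits of the receptors for glutamate, GABA and glycine were examined in RNA from the embryonic mouse brain with and without Gasdermin D (Gsdmd). They were taken by gene symbol from the protein-coding genes of the deposited table. The rule uses no measured value, but it was chosen with earlier results of these data known. In all, 48 genes of the 26955 in the table fitted. These are 4 AMPA, 7 NMDA, 5 kainate, 2 delta and 8 metabotropic glutamate receptor genes, 16 GABA-A and 2 GABA-B receptor genes and 4 glycine receptor genes. The RNA came from C57BL/6 embryos of day 13. The cKO group (replicates 2 and 6) carries Gsdmd fl/fl and Nestin-Cre, so Cre under control of the Nestin promoter removes Gsdmd from neural progenitors and their progeny, while other cells of the tissue keep the gene. The control group (replicates 4 and 5) is labelled WT, and the methods of the study name these animals Gsdmd fl/fl. The labels name brain as the tissue and the methods name the cerebral cortex. Each group had 2 libraries, whereas the series design speaks of triplicates, and the sources do not state whether each came from its own embryo, so p-values measure only how far these libraries spread, which may be technical.

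The libraries held 16962553 to 18205945 counts. Gsdmd had 54 and 43 counts in the WT libraries and 13 and 7 in the cKO libraries (log2 fold change -2.34, standard error 0.40, adjusted p = 0.0846 by edgeR), so the groups did not overlap although the difference did not pass after adjustment. Markers of neurons and of the dorsal telencephalon were detected in each library (the 10 dorsal telencephalic markers summed to 2955 to 3583 CPM), and the midbrain genes En1, En2 and Pax7 together reached at most 0.179 CPM. WT replicate 5 stood apart from the others. It had 7640 counts of Xist, against 1 to 12 elsewhere, and 4 counts of 4 Y-linked genes, against 1857 to 2191. These counts are those of female tissue in WT replicate 5 and of male tissue in the other libraries. Sex thus cannot be told apart from other differences of WT replicate 5. The 6 choroid plexus markers summed to 176 CPM in it, mostly from Ttr at 142 CPM, against 18.6 CPM in WT replicate 4 and 5.01 and 4.91 CPM in the cKO libraries. Of these markers Otx2 was similar in both WT libraries, with 15.6 and 14.0 CPM in WT and 3.20 and 1.56 CPM in cKO. It was called lower in cKO (adjusted p = 0.00922 by edgeR), beside 0.196% of all tested genes called lower. A fit that leaves out a library has a single library in that group, whose spread is then taken to be like that of the other group.

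Glutamate and GABA are the main excitatory and inhibitory transmitters of the adult brain. AMPA, kainate and NMDA receptors are ion channels that glutamate opens, and metabotropic glutamate receptors act through G proteins. GABA-A and glycine receptors are chloride channels of the Cys-loop family, usually built from several kinds of subunit, and the GABA-B receptor is a G protein-coupled pair of Gabbr1 and Gabbr2. In the embryonic cortex these receptors are present on progenitors and young neurons before most synapses form, and GABA then often depolarizes cells because their chloride content is high.

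Of the 48 genes, 43 had at least 40 counts over the 4 libraries and all of these passed the filter on low counts and were tested. The 5 others were Gabrr2 with 35 counts, Glra3 with 13, Gabrr1 with 5, Glra4 with 2 and Grm6 with 1. The levels are given as CPM, the counts scaled to a common library size after TMM normalization, and genes are compared with each other only as CPM per kb, where the length is the union of all annotated exons. All 48 genes together took 0.126% and 0.146% of the counts of WT replicates 4 and 5 and 0.144% and 0.139% of those of cKO replicates 2 and 6. On the scale of CPM per kb, kainate receptor genes made up 40.1% of the summed level of the 48 genes, averaged over the 4 libraries, GABA-B genes 18.3%, AMPA genes 14.4%, GABA-A genes 12.4%, glycine receptor genes 6.15%, metabotropic glutamate genes 4.00%, NMDA genes 3.28% and delta genes 1.38%. The kainate and GABA-B shares came almost wholly from Grik5, Grik3 and Gabbr1, the 3 genes with the highest level per kb.

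In the order of levels per kb, Grik5 came first (53.7 ± 5.93 CPM per kb, SD over 4 libraries), followed by Gabbr1 (34.1 ± 3.86), Grik3 (18.3 ± 2.77), Gria1 (12.4 ± 1.83), Gria2 (9.91 ± 0.378) and Glra2 (8.99 ± 0.447). Grik5, Gabbr1 and Grik3 were each apart from the next gene in all 4 libraries, whereas Gria1 and Gria2 overlapped. Of the 47 pairs of neighbours in this order, 6 had ranges over the libraries that did not overlap, so below the first few genes the order is not resolved. With the longest transcript as the length, 9 of the first 10 genes were shared with this order.

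**Figure D1:**
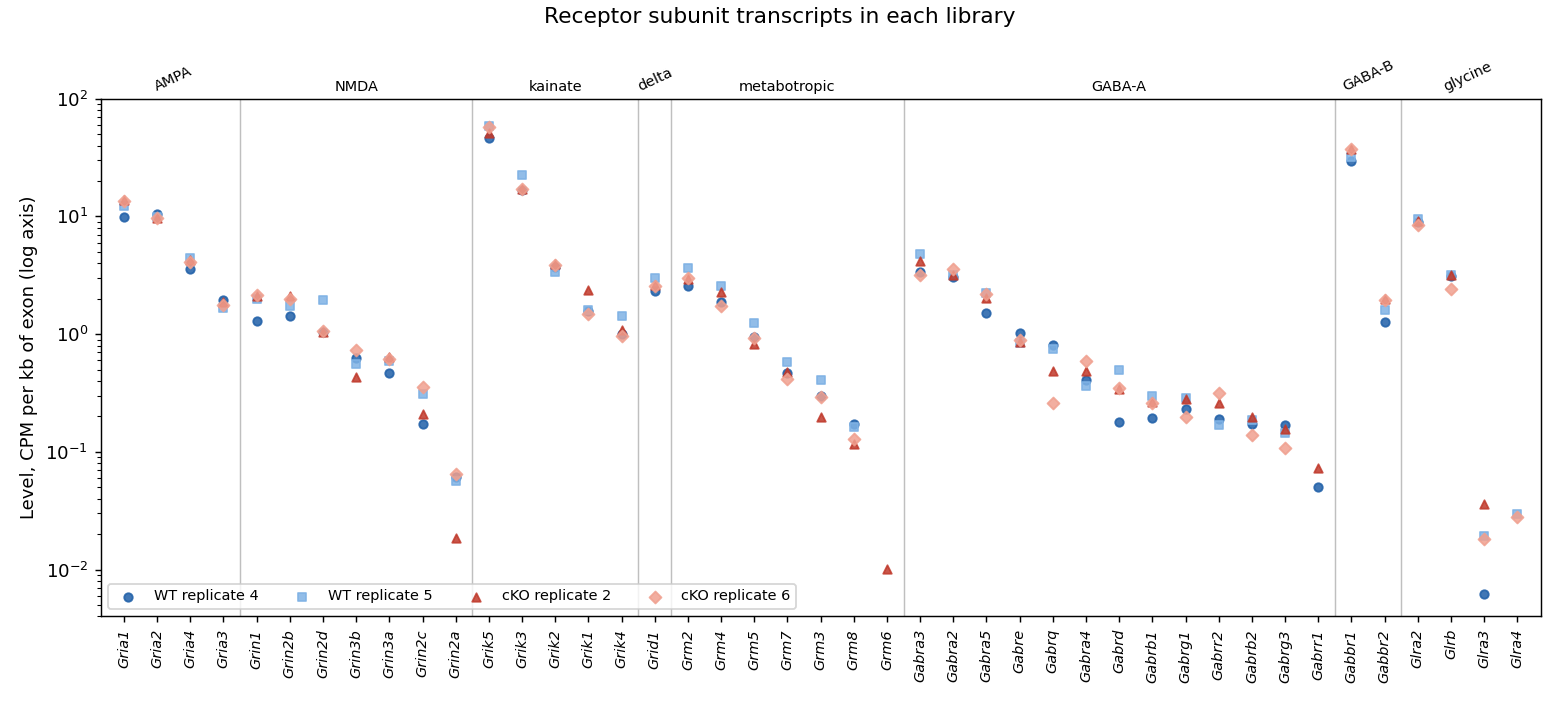
Level of 43 of the 48 receptor subunit genes in each of the 4 libraries, in CPM per kb of exon on a log axis, grouped by receptor class and ordered by mean level. Libraries with 0 counts of a gene are not drawn, and levels run from 53.7 CPM per kb on average for Grik5 to 0.00254 for Grm6, with the 4 libraries close together for most genes.

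No receptor subunit gene passed the test between genotypes. With p-values of edgeR's quasi-likelihood test adjusted over all 15804 tested genes (Benjamini-Hochberg, threshold 0.05), 0 of the 43 were called, beside 0.202% of all tested genes (32 genes), made up of 0.00633% higher and 0.196% lower in cKO, and the lowest adjusted p among them was 0.476, that of Gabrq. The count was likewise 0 by DESeq2, by limma-voom and by the likelihood ratio test of edgeR. At an unadjusted p under 0.05 there were 5 of 43 (11.6%), beside 7.11% of all tested genes. Of these, 4 had the higher level in cKO (Grin2b, Gabbr2, Gabbr1 and Gria1), beside 3.32% of all tested genes in that direction, and Gabrq had the lower level, beside 3.79%. The groups did not overlap for 15 of the 43 (34.9%), beside 37.2% of all tested genes, 9 with cKO higher (16.9% of all) and 6 with cKO lower (20.3% of all). The median log2 fold change of cKO over WT was -0.07 over the 43 and -0.01 over all tested genes. For 33 of the 43 the 95% interval of the log2 fold change lay between -1 and 1, which held for each of the 17 genes with at least 1000 counts. In bulk RNA, fewer cells of a type and less RNA per cell cannot be told apart.

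**Figure D2:**
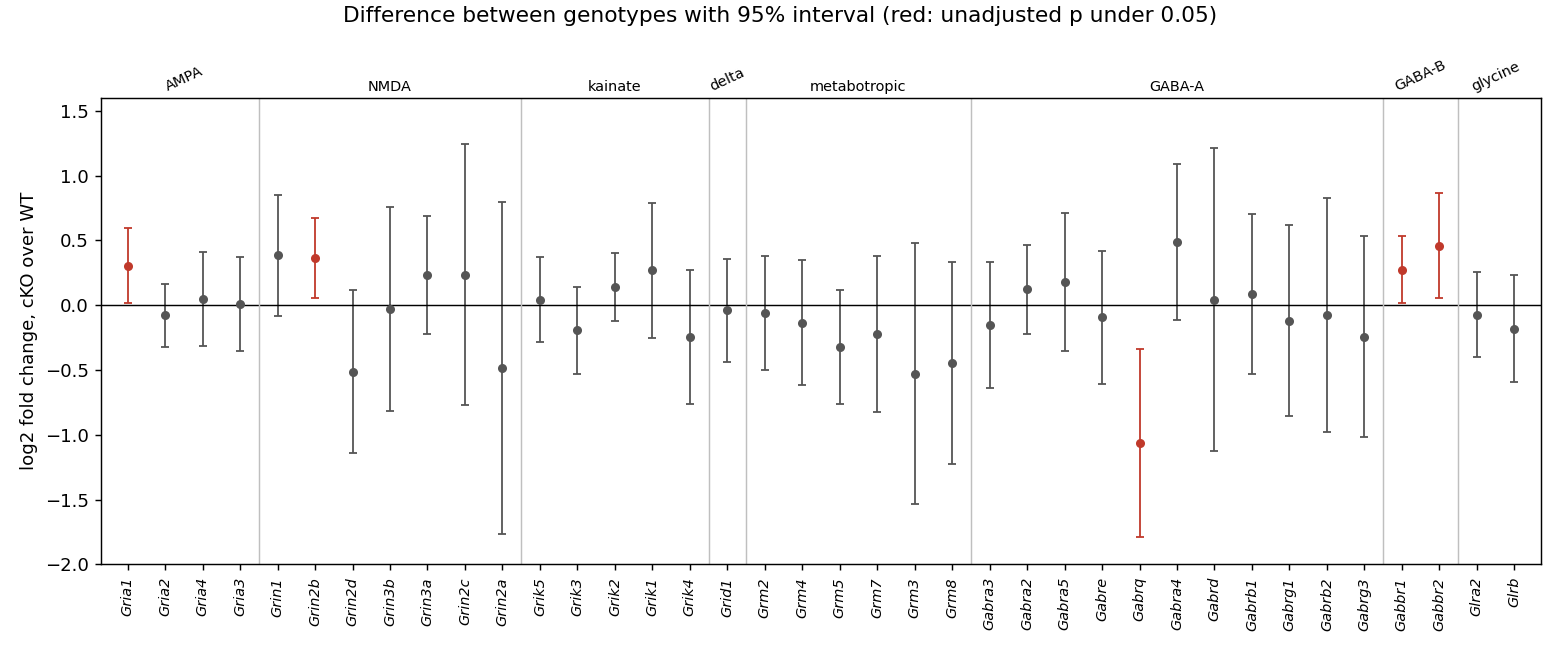
Log2 fold change of cKO over WT for 38 of the 43 tested genes, with the 95% interval from edgeR's quasi-likelihood fit (n = 2 per group), by receptor class in the order of their level. The 5 genes in red (Gabrq, Grin2b, Gabbr1, Gabbr2 and Gria1) had an unadjusted p under 0.05 and intervals that leave out 0, and no gene passed after adjustment.

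The AMPA receptor genes were led by Gria1 and Gria2, which encode GluA1 and GluA2. GluA2 is the subunit that makes the channel nearly impermeable to calcium once its transcript is edited. Gria1 had 59.5 and 74.7 CPM in WT replicates 4 and 5 and 84.1 and 81.6 CPM in cKO replicates 2 and 6. The groups did not overlap, but the WT libraries differed from each other by more than the nearer of them differed from cKO. Its log2 fold change was 0.30 with a standard error of 0.13 (unadjusted p = 0.0408, adjusted p = 0.683 by edgeR). Gria2 had 162 and 154 CPM in WT and 149.6 and 150.2 CPM in cKO, a log2 fold change of -0.08 with a standard error of 0.11 (adjusted p = 0.924 by edgeR). Gria2 thus had its 4 libraries within a narrow range, and its 95% interval was -0.32 to 0.17. Gria4 had 22.8 and 28.1 CPM in WT and 26.7 and 25.9 CPM in cKO, a log2 fold change of 0.05 with a standard error of 0.16 (adjusted p = 0.975 by edgeR), and Gria3, which is X-linked, had 16.3 to 19.3 CPM over the 4 libraries. As shares of the AMPA total per kb, Gria1 took 38.1% and 43.6% in WT and 46.9% and 46.5% in cKO, and Gria2 40.4% and 34.9% in WT and 32.5% and 33.3% in cKO. The ratio of Gria2 to Gria1 per kb was 1.06 and 0.801 in WT and 0.692 and 0.715 in cKO, so its groups did not overlap either, a description with no test of its own. Which of the genes stands higher is not settled, since with the longest transcript as the length Gria2 was at 14.9 and Gria1 at 13.5 CPM per kb on average.

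NMDA receptors need the obligatory GluN1 subunit, encoded by Grin1, with GluN2 or GluN3 subunits. GluN2B and GluN2D, encoded by Grin2b and Grin2d, are the GluN2 subunits known from the embryonic brain, and GluN2A and GluN2C come up mainly after birth. Per kb, Grin2b and Grin2d together took most of the GluN2 total in each library, while Grin2a took 0.548% to 2.24% and Grin2c 6.18% to 10.2%. Grin2b had 35.4 and 43.2 CPM in WT and 52.3 and 49.0 CPM in cKO. The groups did not overlap, and its log2 fold change was 0.37 with a standard error of 0.14 (unadjusted p = 0.0251, adjusted p = 0.635 by edgeR). Grin1 had 12.6 and 19.2 CPM in WT and 20.5 and 21.0 CPM in cKO, a log2 fold change of 0.38 with a standard error of 0.20 (adjusted p = 0.760 by edgeR), with WT replicate 4 alone well below the other libraries. Part of the Grin1 exon sequence is shared with Grin1os on the opposite strand, and whether the counting used strand is not given.

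Grin2d showed how far a single library could set a result. It had 6.996 CPM in WT replicate 4, 6.89 and 7.14 CPM in the cKO libraries and 13.04 CPM in WT replicate 5. WT replicate 5 was thus the library that differed, and the other 3 lay together. The log2 fold change over all libraries was -0.51 (standard error 0.28, adjusted p = 0.765 by edgeR). Without WT replicate 5 it was 0.01, and without WT replicate 4 it was -0.89, each with a single WT library against both cKO libraries. The ratio of Grin2b to Grin2d per kb was 1.36 and 0.888 in WT and 2.03 and 1.84 in cKO. The remaining NMDA genes, Grin2a, Grin2c, Grin3a and Grin3b, were at 7.82 CPM or below in each library, with log2 fold changes of -0.48 to 0.24. Grin3b shares exon sequence with Tmem259 on the opposite strand and Grin2d with Gm45441.

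**Figure D3:**
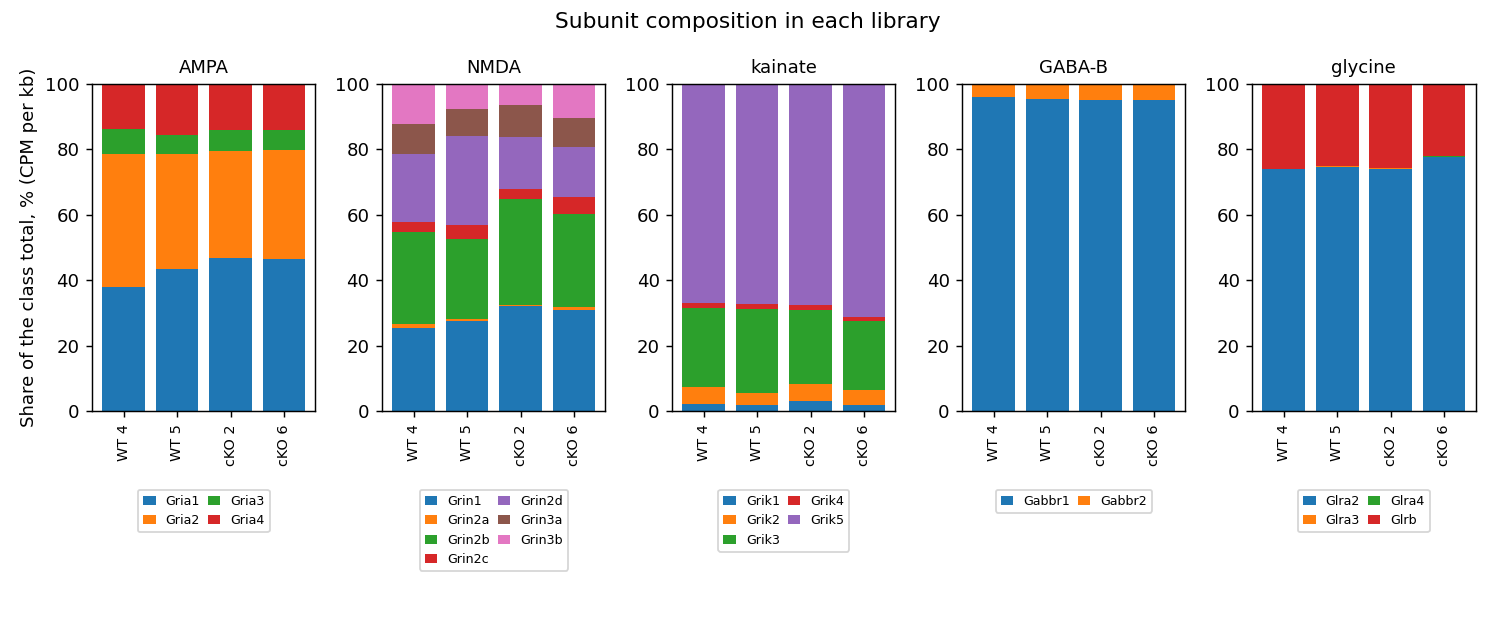
Share of each subunit gene in the summed level of its class, in percent of CPM per kb, for the AMPA, NMDA, kainate, GABA-B and glycine receptor genes in each of the 4 libraries. Grik5 took 67.1% to 71.3% of the kainate total, Gabbr1 94.9% to 95.9% of the GABA-B total and Glra2 73.8% to 77.6% of the glycine receptor total.

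Kainate receptors combine the subunits GluK1, GluK2 and GluK3, which form channels on their own, with GluK4 or GluK5, which bind glutamate with high affinity and need a partner. Grik5, the gene of GluK5, had 241 and 306 CPM in WT and 264 and 299 CPM in cKO, a log2 fold change of 0.04 with a standard error of 0.14 (adjusted p = 0.975 by edgeR). Grik3, the gene of GluK3, had 149 and 201 CPM in WT and 154 and 152 CPM in cKO, a log2 fold change of -0.19 with a standard error of 0.15 (adjusted p = 0.849 by edgeR), with WT replicate 5 alone above the other libraries. Grik2 had 48.8 and 44.3 CPM in WT and 51.8 and 51.0 CPM in cKO, a log2 fold change of 0.14 with a standard error of 0.12 (adjusted p = 0.857 by edgeR). The Grik5 interval was -0.28 to 0.37 and the Grik2 interval -0.12 to 0.41, so both included 0. Grik1 had 16.0 CPM in cKO replicate 2 and 9.92 to 10.8 CPM in the other libraries, and Grik4 had 5.74 to 8.57 CPM.

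Delta subunits bind glycine and D-serine and act as synaptic organizers with little channel activity. Grid1 had 13.8 and 17.98 CPM in WT and 15.6 and 15.2 CPM in cKO, a log2 fold change of -0.04 with a standard error of 0.18 (adjusted p = 0.979 by edgeR). Its level per kb was 2.63 ± 0.293 CPM (SD over 4 libraries), and the cKO libraries lay between the WT libraries.

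Metabotropic glutamate receptors of groups II and III lower cyclic AMP, and Grm2 and Grm4 of these groups had the highest levels per kb of the class. Grm2 (group II) had 12.5 and 17.7 CPM in WT and 14.3 and 14.8 CPM in cKO, a log2 fold change of -0.06 with a standard error of 0.19 (adjusted p = 0.975 by edgeR). Grm4 (group III) had 11.1 and 15.2 CPM in WT and 13.6 and 10.4 CPM in cKO, a log2 fold change of -0.14 with a standard error of 0.21 (adjusted p = 0.931 by edgeR). For both genes the cKO libraries lay among or next to the WT libraries. Grm5, a group I receptor that signals through phospholipase C and is known from cortical progenitors, had 9.69 and 12.7 CPM in WT and 8.43 and 9.42 CPM in cKO. Its groups did not overlap, and it had a log2 fold change of -0.32 with a standard error of 0.19 (adjusted p = 0.784 by edgeR). Grm7, Grm8 and Grm3 were at 3.39 CPM or below, and Grm6, the receptor of retinal ON bipolar cells, had 1 count in all. Of the 7 tested genes of this class 6 had a log2 fold change below 0, with a median of -0.22, and none passed the test (0 at an unadjusted p under 0.05). The median was -0.06 without WT replicate 5 and -0.37 without WT replicate 4, and without WT replicate 5 the log2 fold changes of Grm2 and Grm4 were 0.22 and 0.12.

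GABA-A receptor genes lie in clusters in the mouse genome, and the table's positions place, among others, Gabrg1, Gabra2, Gabra4 and Gabrb1 together on chromosome 5, Gabrg3 and Gabra5 on chromosome 7 and Gabre, Gabra3 and Gabrq on the X chromosome. Neighbours differed in level. On chromosome 5 Gabra2 was at 3.24 and Gabrg1 at 0.250 CPM per kb, and on chromosome 7 Gabra5 was at 1.98 and Gabrg3 at 0.144 CPM per kb. Gabra4 and Gabrb1 point away from each other and overlap by 196 bases at their starts in the table, with 46 bases of exon in common. Reads from that stretch may not have been assigned to the right gene. The sequences upstream of the start are shown for the X-linked cluster, because Gabrq had the largest log2 fold change in size among the 43 tested genes and Gabra3 and Gabre had small ones, for the overlapping pair Gabra4 and Gabrb1, and for Gabbr1, the gene with the most counts among those with an unadjusted p under 0.05. They are the 250 bases before the RefSeq start nearest to the start in the table (GRCm38.p6), written 5′ to 3′ on the strand of the gene, with each CG dinucleotide in capitals. They lie at chrX:72824928-72825177 on the plus strand, chrX:72656808-72657057 and chrX:72274722-72274971 on the minus strand, chr5:71658309-71658558 on the minus strand, chr5:71657671-71657920 on the plus strand and chr17:37045716-37045965 on the plus strand.
Gabrq: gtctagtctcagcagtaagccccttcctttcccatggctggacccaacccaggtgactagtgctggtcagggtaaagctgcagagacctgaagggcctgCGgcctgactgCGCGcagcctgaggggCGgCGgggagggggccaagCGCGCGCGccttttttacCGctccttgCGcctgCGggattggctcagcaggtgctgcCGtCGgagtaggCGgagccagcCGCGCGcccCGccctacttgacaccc
Gabra3: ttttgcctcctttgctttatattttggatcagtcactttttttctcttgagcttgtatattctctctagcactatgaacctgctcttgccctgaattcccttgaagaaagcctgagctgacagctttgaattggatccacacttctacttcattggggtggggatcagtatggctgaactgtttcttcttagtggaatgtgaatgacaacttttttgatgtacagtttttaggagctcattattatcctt
Gabre: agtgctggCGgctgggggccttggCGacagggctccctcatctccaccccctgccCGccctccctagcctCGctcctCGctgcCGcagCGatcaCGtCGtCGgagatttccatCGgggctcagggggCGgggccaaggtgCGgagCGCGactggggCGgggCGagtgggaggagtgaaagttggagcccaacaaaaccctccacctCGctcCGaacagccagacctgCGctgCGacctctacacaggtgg
Gabra4: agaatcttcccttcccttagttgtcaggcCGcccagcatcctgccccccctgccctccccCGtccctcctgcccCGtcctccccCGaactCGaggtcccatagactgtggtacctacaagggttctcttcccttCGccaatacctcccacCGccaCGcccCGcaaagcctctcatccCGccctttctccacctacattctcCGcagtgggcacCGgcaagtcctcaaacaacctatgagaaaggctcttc
Gabrb1: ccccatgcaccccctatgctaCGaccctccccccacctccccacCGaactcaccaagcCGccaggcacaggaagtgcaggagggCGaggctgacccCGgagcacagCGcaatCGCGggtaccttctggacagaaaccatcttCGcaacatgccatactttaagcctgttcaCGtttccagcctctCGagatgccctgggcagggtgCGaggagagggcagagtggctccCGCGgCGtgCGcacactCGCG
Gabbr1: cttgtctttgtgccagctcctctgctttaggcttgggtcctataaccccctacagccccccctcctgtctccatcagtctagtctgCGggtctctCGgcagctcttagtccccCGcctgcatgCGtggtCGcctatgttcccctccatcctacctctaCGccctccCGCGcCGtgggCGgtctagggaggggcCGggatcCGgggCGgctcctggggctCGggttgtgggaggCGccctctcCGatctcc

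The X-linked neighbours differ in these letters. The stretch before Gabrq held 19 CG dinucleotides and that before Gabre 21, whereas that before Gabra3 held 0. Over RefSeq windows of 300 bases (250 before to 50 after the start), 33 of the 48 genes matched. Their median was 15 CG dinucleotides, beside 7 over all 32851 windows, of which 5.43% held none. The 16 matched genes at 1 CPM per kb or more had a median of 23.5 and the 17 below that level a median of 11. The groups overlapped, since Grik5 at 53.7 CPM per kb held 10, Glra2 at 8.99 held 9 and Gabra3 at 3.88 held 0. Among the genes below 1 CPM per kb, Grm8 at 0.146 held 33. The matched window of Grin2d, with 12, lay 11697 bases from the start in the table. These counts describe the letters only, and neither promoter use nor methylation was measured.

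Gabrq encodes the theta subunit, known mainly from the hypothalamus and from monoaminergic nuclei of the brainstem. It had 4.36 and 3.99 CPM in WT replicates 4 and 5 and 2.59 and 1.39 CPM in cKO replicates 2 and 6, which are 76 and 67 counts in WT and 47 and 25 in cKO. Both cKO libraries lay below both WT libraries, and cKO replicate 6 was the lowest. The level was 4.17 ± 0.262 CPM in WT and 1.99 ± 0.845 CPM in cKO (SD, n = 2), and the log2 fold change was -1.06 with a standard error of 0.32 (95% interval -1.79 to -0.34, unadjusted p = 0.00889, adjusted p = 0.476 by edgeR). Without cKO replicate 2 the log2 fold change was -1.58, with a single cKO library against both WT libraries. Without cKO replicate 6 the log2 fold change was -0.67, so its size depended on that library. The X-linked neighbours Gabra3 and Gabre had log2 fold changes of -0.15 and -0.09. Beside Gabrq, the 6 tested markers of the hypothalamus all had log2 fold changes below 0, of which Hmx2, Hmx3 and Bsx passed the test, beside 0.196% of all tested genes called lower. The median log2 fold change of the 6 was -3.68. It ran from -3.21 without WT replicate 5 to -4.04 without WT replicate 4. Whether the calls hold without WT replicate 5 cannot be told, since that fit has a single WT library. The hypothalamic markers summed to 21.4 and 44.8 CPM in WT and to 9.03 and 9.37 CPM in cKO, Hmx2 was at 0 in both cKO libraries, and Rax and Nkx2-4 were at 0 in WT replicate 4 and in both cKO libraries. The part of these cells in the Gabrq values was not tested.

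The alpha subunits set the site where GABA and benzodiazepines act, and the beta subunits complete the GABA site. Gabra3 had 13.2 and 18.9 CPM in WT and 16.3 and 12.6 CPM in cKO, a log2 fold change of -0.15 with a standard error of 0.21 (adjusted p = 0.924 by edgeR). Gabra2 had 23.2 and 24.2 CPM in WT and 24.2 and 27.4 CPM in cKO, and Gabra5 4.47 and 6.61 CPM in WT and 6.06 and 6.47 CPM in cKO. The groups overlapped for all 3 genes. Gabra4 had 2.47 and 2.202 CPM in WT and 2.98 and 3.57 CPM in cKO, which did not overlap between the groups, and its overlapping neighbour Gabrb1 had 2.70 and 4.11 CPM in WT and 3.64 and 3.57 CPM in cKO, with overlap.

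The genes of the beta2, gamma1, gamma3 and delta subunits (Gabrb2, Gabrg1, Gabrg3 and Gabrd) and the X-linked epsilon gene Gabre were at 4.82 CPM or below in each library, with log2 fold changes of -0.24 to 0.04. The rho genes Gabrr1 and Gabrr2, known from the retina, had 5 and 35 counts in all.

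Both GABA-B genes had a higher level in both cKO libraries than in both WT libraries. Gabbr1, whose protein binds GABA, had 229 and 250.2 CPM in WT and 290.2 and 289 CPM in cKO. Its log2 fold change was 0.27 with a standard error of 0.11 (95% interval 0.01 to 0.53, unadjusted p = 0.0408, adjusted p = 0.683 by edgeR). Gabbr2, whose protein couples to the G protein and carries its partner to the cell surface, had 8.54 and 10.7 CPM in WT and 13.4 and 13.05 CPM in cKO. Its log2 fold change was 0.46 with a standard error of 0.18 (95% interval 0.05 to 0.86, unadjusted p = 0.0311, adjusted p = 0.654 by edgeR). Neither passed after adjustment. Although the receptor needs both proteins, the Gabbr1 transcript stood at 18.7 to 23.1 times the level of Gabbr2 per kb in the 4 libraries. This ratio depends on the length used. With the longest transcript as the length, Gabbr1 was at 50.4 and Gabbr2 at 1.99 CPM per kb on average.

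**Figure D4:**
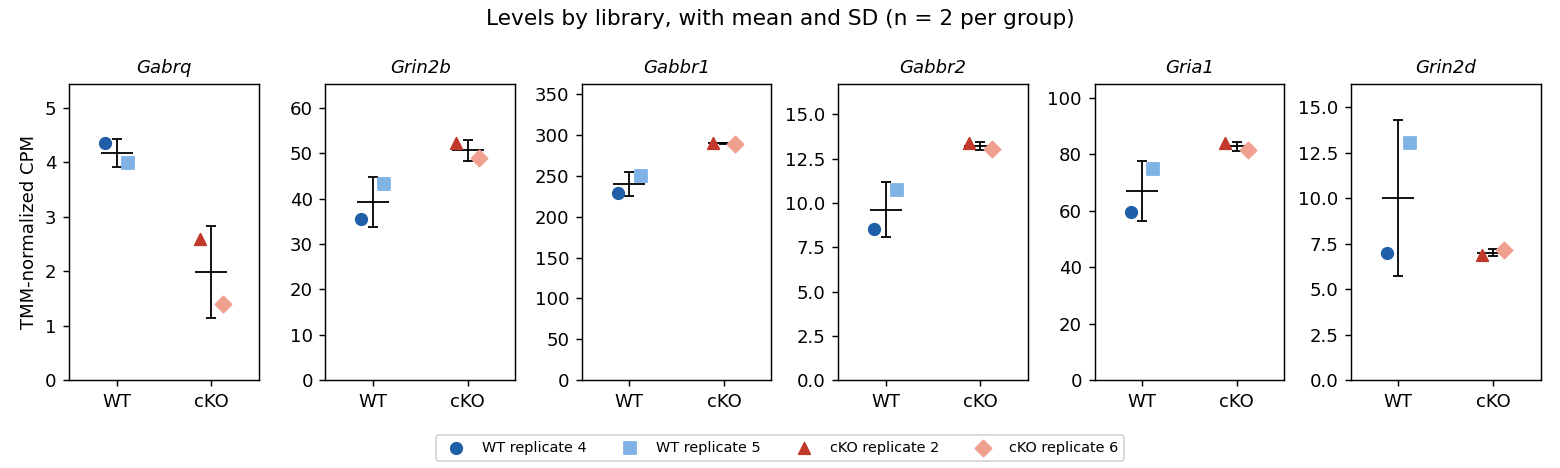
TMM-normalized CPM by library for the 5 genes with an unadjusted p under 0.05 and for Grin2d, with the mean and SD of each group (n = 2). The groups do not overlap for Gabrq, Grin2b, Gabbr1, Gabbr2 and Gria1, and for Grin2d WT replicate 5 lies at 13.04 CPM while the other libraries lie at 6.89 to 7.14 CPM.

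Glycine receptors of the embryo are built mainly from the alpha2 subunit, encoded by Glra2, while the beta subunit, encoded by Glrb, ties receptors to the scaffold protein gephyrin. Glra2, which is X-linked, had 28.0 and 30.0 CPM in WT and 28.6 and 26.6 CPM in cKO, a log2 fold change of -0.07 with a standard error of 0.14 (adjusted p = 0.9498 by edgeR). Glrb had 14.6 and 14.9 CPM in WT and 14.8 and 11.2 CPM in cKO, a log2 fold change of -0.18 with a standard error of 0.18 (adjusted p = 0.884 by edgeR), with cKO replicate 6 alone below the others. The 95% interval was -0.40 to 0.26 for Glra2 and -0.59 to 0.23 for Glrb, so both included 0. Glra3 had 13 counts in all and Glra4 had 2, so nearly all glycine receptor counts were those of Glra2 and Glrb.

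The partners of these receptors were counted in lists chosen with earlier results of these data known. Of 13 tested auxiliary subunits of glutamate receptors, 10 partners of GABA and glycine receptors, 8 genes of GABA and glycine synthesis, transport and breakdown, 9 of glutamate synthesis and transport, 5 cation-chloride cotransporters and 20 postsynaptic scaffold genes, 0 passed by edgeR's quasi-likelihood test, its likelihood ratio test, DESeq2 or limma-voom. At an unadjusted p under 0.05 the numbers were 1, 1, 4, 0, 0 and 0, beside 7.11% of all tested genes. For these lists, fits that leave out a library are given by medians only, since they have a single library in a group. The list of GABA synthesis, transport and breakdown had a median log2 fold change of -0.33, with 1 of its 8 tested genes above 0, whereas the medians of the other 5 lists were -0.01, 0.00, -0.01, 0.03 and 0.08 in the same order. These medians moved with single libraries. Without WT replicate 5 the GABA list was at -0.11, the auxiliary subunits at 0.27 and the scaffolds at 0.21, and the GABA list was at -0.51 without cKO replicate 2 and at -0.53 without WT replicate 4.

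The genes that make, load and break down GABA had lower mean levels in cKO without passing the test, while among the 14 tested GABA-A genes 5 log2 fold changes were above 0 and 9 below. Gad1, a GABA-synthesizing enzyme, had 70.7 and 84.6 CPM in WT and 65.6 and 42.9 CPM in cKO, a log2 fold change of -0.52 with a standard error of 0.19 (unadjusted p = 0.0221, adjusted p = 0.632 by edgeR). Gad2, the other such enzyme, had 80.9 and 96.4 CPM in WT and 74.7 and 45.2 CPM in cKO, a log2 fold change of -0.56 with a standard error of 0.21 (unadjusted p = 0.0240, adjusted p = 0.633 by edgeR). In both genes cKO replicate 6 was far below the other libraries. Abat, which breaks GABA down, had a log2 fold change of -0.61 with a standard error of 0.15 (unadjusted p = 0.00357, adjusted p = 0.330 by edgeR), and Slc32a1, the vesicular transporter of GABA and glycine, -0.53 (standard error 0.23, unadjusted p = 0.0470, adjusted p = 0.695 by edgeR), with 32.6 and 54.5 CPM in WT and 33.0 and 27.4 CPM in cKO, which overlapped. The median of their list stayed below 0 whichever library was left out, from -0.53 without WT replicate 4 to -0.11 without WT replicate 5. Whether single genes pass cannot be told from such fits, which have a single library in a group. The 12 markers of the ventral telencephalon and its GABAergic neurons, Gad1 and Gad2 included, summed to 1274 and 1443 CPM in WT and 981 and 653 CPM in cKO. All 12 log2 fold changes were below 0, and 11 had an unadjusted p under 0.05, beside 3.79% of all tested genes with cKO lower. By edgeR's quasi-likelihood test and by limma-voom 0 were called. The likelihood ratio test called 4, beside 148 of all tested genes, and DESeq2 2, beside 81. Their median log2 fold change was -0.71, and it ran from -1.06 without cKO replicate 2 to -0.38 without cKO replicate 6. The part of these cells in the GABA genes was not tested.

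On the glutamate side, Slc17a6, the vesicular glutamate transporter VGLUT2, had 51.4 and 45.0 CPM in WT and 45.0 and 51.0 CPM in cKO (log2 fold change -0.01, standard error 0.13, adjusted p = 0.995 by edgeR). Slc17a7, which encodes VGLUT1, had the smallest p of its list and a log2 fold change of 0.27 with a standard error of 0.12 (adjusted p = 0.704 by edgeR). The main chloride importer and exporter of neurons, which set the chloride gradient for GABA-A and glycine receptors, overlapped between the groups. Slc12a2, the chloride importer NKCC1, had 35.7 and 31.5 CPM in WT and 35.4 and 26.9 CPM in cKO (log2 fold change -0.11, standard error 0.17, adjusted p = 0.933 by edgeR), and Slc12a5, the exporter KCC2, 36.0 and 50.5 CPM in WT and 47.1 and 40.8 CPM in cKO (0.03, standard error 0.17, adjusted p = 0.990 by edgeR). Of the receptor partners, Cnih3, an AMPA receptor auxiliary protein, had a log2 fold change of 0.47 (unadjusted p = 0.0481, adjusted p = 0.695 by edgeR), and Kctd12b, of a family that binds GABA-B receptors, -1.14 (unadjusted p = 0.0184, adjusted p = 0.618 by edgeR).

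Single libraries moved the list more than the choice of test did. Without WT replicate 5 the median over the tested receptor genes was 0.07, beside 0.003 over all tested genes in that fit. It was 0.02 without cKO replicate 6. Without WT replicate 4 the median was -0.13, beside -0.007 over all tested genes in that fit. The sign of the median over the receptor genes thus depended on which WT library was used. WT replicate 4 had the lowest summed level of the 48 genes (176 CPM per kb) and WT replicate 5 the highest (210.1), with 198 and 199.7 in the cKO libraries. The 10 neuronal markers summed to 5390 CPM in WT replicate 4 and 6787 CPM in WT replicate 5, and to 5347 and 5922 CPM in cKO. Tubb3 made much of the difference between the WT libraries (2102 and 2844 CPM). Map2 (531 and 522 CPM) and Elavl4 (141 and 132 CPM) were lower in WT replicate 5, and the other neuronal markers higher. The part of neuronal markers in the receptor values was not tested. Gabrq, Grin2b, Gabbr1, Gabbr2 and Gria1 kept their direction under each of the 11 alternatives. This adds no support, because their groups did not overlap and leaving out a library could hardly reverse them.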

How the data were processed

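RNA of cKO (replicates 2 and 6) and WT (replicates 4 and 5) was measured in 4 libraries. The authors deposited a single table with the count of reads for each gene. Bowtie2 2.2.3, TopHat2 2.0.12, HTSeq 0.6.0 and the build mm9 appear in the submitters' processing notes, while 92.7% of the 26955 positions equal those of GENCODE M21 (GRCm38). For the strand setting and annotation release, the sources used here give nothing. The deposited table also holds the authors' normalized mean (a signal), fold change as a ratio, log2 fold change and p-values, none of which was used.

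Counts were tested in R 4.3.3 with edgeR 4.0.16 (filterByExpr, TMM, glmQLFit and glmQLFTest, prior count 0.125), and adjusted p-values under 0.05 over 15804 genes were called. Standard errors are the log2 fold change over the square root of F. The cKO libraries held 17863433 and 18205945 counts and the WT libraries 17377394 and 16962553. The common dispersion was 0.0169, a coefficient of variation of 13.0%. Steps were tested on simulated data. Lengths came from GENCODE M21 exons and promoter sequences from RefSeq.

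The members and lists were chosen with earlier results of these data known. Full statistics went to members with an unadjusted p under 0.05, a log2 fold change of 0.75 or more in size or one of the 3 highest levels per kb of a class, and in the lists to up to 2 genes by smallest p and to Gad1, Gad2, Slc32a1, Slc17a6, Slc12a2 and Slc12a5. Some members are not reported here. The alternatives were DESeq2 1.42.0 and its size factors, the likelihood ratio test, limma-voom (limma 3.58.1), no filter, a filter of 1 CPM, a prior count of 2, and leaving out each library.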

Additional observations from a re-analysis of the deposited data

How the results depend on the processing

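Over all genes 32 were called by edgeR's quasi-likelihood test, and 148 with the likelihood ratio test, 81 with DESeq2, 8 without a filter and 0 to 292 when a library was left out, 0 being the count without WT replicate 5. Called receptor genes numbered 0 under every alternative that kept all libraries and 0 to 1 when a library was left out. No paired analysis was possible because the groups share no replicate number. Of the 19 receptor genes reported with full statistics, 10 kept their direction in all 11 alternatives. Most of these had groups that did not overlap, which leaving out a library can hardly reverse. The other 9 changed direction when a library was left out. The log2 fold change then ran from -0.12 to 0.23 for Grik5, -0.39 to 0.048 for Grik3, -0.10 to 0.22 for Gria4, -0.39 to 0.14 for Gabra3, -0.29 to 0.22 for Grm2, -0.40 to 0.023 for Glrb, -0.22 to 0.17 for Grid1, -0.35 to 0.12 for Grm4 and -0.89 to 0.012 for Grin2d. With the longest transcript in place of all exons, 9 of 19 levels per kb moved by more than the SD over libraries. Genes with few counts had wide intervals, with standard errors up to 0.57 for the least measured receptor genes, so differences of small size were not detectable at this depth.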

Other observations

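Nicotinic acetylcholine and 5-HT3 receptor subunits belong to the same Cys-loop family as the GABA-A and glycine receptors. Of 8 tested genes 0 passed by edgeR's quasi-likelihood test, its likelihood ratio test, DESeq2 or limma-voom, and 2 had an unadjusted p under 0.05, both with cKO lower, beside 3.79% of all tested genes in that direction. Chrna4, whose subunit pairs with that of Chrnb2 in the main nicotinic receptor of the brain, had a level of 16.4 ± 2.12 CPM in WT and 11.3 ± 0.684 CPM in cKO (SD, n = 2), a log2 fold change of -0.53 with a standard error of 0.17 (adjusted p = 0.551 by edgeR). Chrnb2 itself went the other way without passing, with 83.6 and 101.8 CPM in WT and 101.7 and 121.9 CPM in cKO. Its log2 fold change was 0.27 with a standard error of 0.14 (adjusted p = 0.756 by edgeR). Chrna5 had 15 and 10 counts in WT and 4 and 2 in cKO (log2 fold change -2.09, adjusted p = 0.538 by edgeR). The list median was -0.18, with 2 of the 8 tested genes above 0.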
